A study of Caenorhabditis elegans with 12 samples.

Results

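The genes described here encode 6 proteins of fat breakdown in Caenorhabditis elegans: the lipase gene lips-6, the fasting-induced lipase genes fil-1 and fil-2, the lipid droplet lipase genes atgl-1 and hosl-1, and lid-1, whose product helps ATGL-1. They were chosen by name from the WBcel235 annotation, 6 of the 46934 gene entries in each file, and all 6 had enough counts to be tested. Whole-body RNA of hermaphrodites was sequenced as 12 libraries, 3 for each of 4 genotypes. Wild type was the strain N2, the dis-3(L75Q) single mutant was VC40130, the eat-2(ad1116) single mutant was IJ173, and the double mutant carrying both alleles was IJ2290. All animals were synchronised adults taken before they became fertile, fed OP50 (an Escherichia coli strain) at 20 °C, and harvested independently. DIS-3 is a catalytic subunit of the exosome, which degrades RNA. EAT-2 forms part of a receptor for acetylcholine in pharyngeal muscle, and animals with mutant eat-2 pump and eat slowly, which makes them a genetic model of dietary restriction. Each genotype was 1 strain, so an allele and other variants of its strain cannot be told apart, and effects named after an allele are differences between strains.

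Worms store fat as triglyceride in lipid droplets, mainly of the intestine, and draw on it when food is short. ATGL-1, the relative of mammalian adipose triglyceride lipase, starts the hydrolysis at the droplet surface, and LID-1, the relative of mammalian CGI-58, binds ATGL-1 there during fasting. HOSL-1 is the relative of hormone-sensitive lipase, which in mammals acts mainly on diacylglycerol. The genes fil-1 and fil-2 were named for their induction by fasting, which in C. elegans needs the endoplasmic reticulum stress sensor IRE-1 and the chaperone HSP-4. LIPS-6 belongs to a family of lipase-related proteins. Where in the cell these proteins act was not measured here.

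The 6 genes lie on 5 chromosomes (WBcel235). The gene lips-6 is at 12014130 to 12015686 on chromosome IV, minus strand, with 4 exons and a coding sequence of 344 codons. Both fasting-induced genes are on the plus strand of chromosome V and have 3 exons, fil-1 at 14993838 to 14995207 with 329 codons and fil-2 at 6279031 to 6280146 with 321. The gene atgl-1 is at 6415772 to 6419459 on chromosome III, minus strand, and its 2 annotated transcripts hold 621 and 751 codons. The gene hosl-1 is at 4637121 to 4643695 on chromosome X, plus strand, with 14 exons and 908 or 943 codons. The gene lid-1 is at 10191273 to 10192832 on chromosome I, minus strand, with 4 transcripts of 313 to 365 codons. No other annotated gene overlapped any of them.

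Levels below are CPM, counts scaled to library size, in which TMM, the trimmed mean of M-values, sets the scaling between libraries. Log2 fold changes are given ± SE from a single edgeR fit of all 12 libraries. A gene is said to have risen or fallen where the Benjamini-Hochberg adjusted p over the 16259 genes tested was under 0.05. Library totals ran from 31812386 to 32773817 counts. The libraries differed along developmental genes. The stage score used here subtracts the mean log2 CPM of 21 genes of oocytes and the eggshell from that of 25 genes of the molt. It was -1.43 ± 2.29 (SD, n = 3) in wild type. The means of the mutants were 1.8 ± 1.85 for dis-3(L75Q), 1.55 ± 0.385 for the double mutant and 1.81 ± 2.04 for eat-2(ad1116). In each of 3 genotypes 1 library stood apart on it: eat-2(ad1116) replicate 1 with -0.545, dis-3(L75Q) replicate 3 with -0.308 and wild type replicate 2 with 1.15. Against wild type the exact two-sided permutation p of the score was 0.2 for each single mutant. It was 0.1 for the double mutant, the smallest that 3 libraries a side allow. Between the double mutant and eat-2(ad1116) this p was 1, and between the double mutant and dis-3(L75Q) 0.9. Markers of the intestine, muscle, epidermis, oocytes and sperm were present in every genotype, with none of these genes at 0 in all libraries.

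Per length of exon, lid-1 was the most abundant of the 6 transcripts and fil-2 the least. The mean over the 12 libraries was 30.1 CPM per kb for lid-1, 9.47 for hosl-1, 8.02 for atgl-1, 7.23 for lips-6, 1.64 for fil-1 and 0.666 for fil-2, where the median of the genes tested was 9.17. The value of lips-6 is an average of very unlike genotypes. Its genotype means ran from 0.927 CPM per kb in wild type, close to the 0.885 of fil-1, to 15.7 in eat-2(ad1116), above the 9.69 of atgl-1 there. The highest genotype mean exceeded the lowest by 16.9-fold for lips-6, 6.11-fold for fil-2, 2.85-fold for fil-1, 1.48-fold for atgl-1, 1.46-fold for lid-1 and 1.42-fold for hosl-1.

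**Figure D1:**
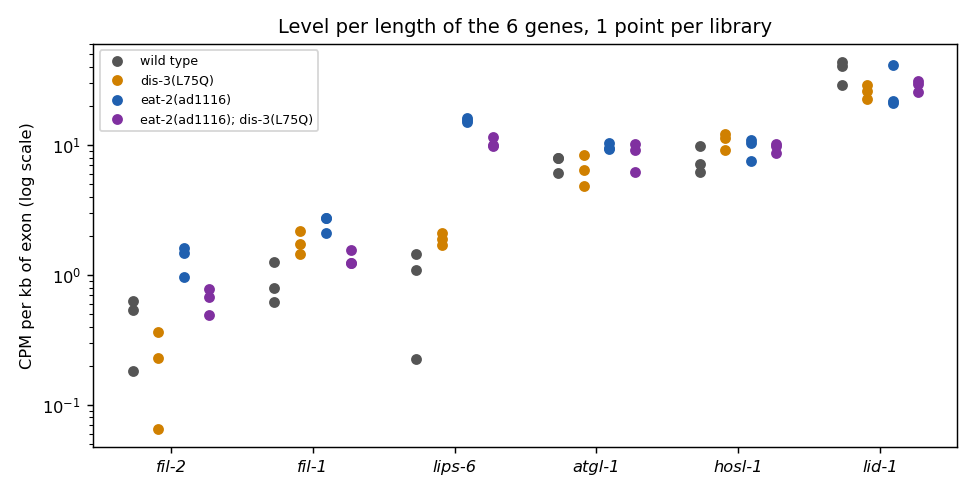
CPM per kb of exon on a log scale for the 6 genes, with 1 point per library and colours for the 4 genotypes. Between wild type and eat-2(ad1116), lips-6 moved from the level of fil-1 to above that of atgl-1.

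The comparison of eat-2(ad1116) with wild type sets the strain used as a model of dietary restriction beside N2. Food intake was not measured here, and the stage score differed by 3.24 between the 2 genotypes. In this comparison lips-6 and fil-1 rose, and the droplet genes atgl-1, hosl-1 and lid-1 did not pass the test. Thus 2 of the 6 genes were called, both higher, where 6.21% of all genes tested were called and 4.08% were called higher. For lips-6, fil-1, fil-2 and atgl-1 the libraries of the 2 genotypes did not overlap, as for 21.7% of all genes. The other value past an unadjusted p of 0.05 was that of fil-2. The median log2 change of the 6 genes was 0.95, and that of all genes tested was -0.01.

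The lips-6 level was 1.33, 1.77 and 0.274 CPM in wild type replicates 1 to 3 and 2.58, 2.06 and 2.32 CPM in dis-3(L75Q). It was 19.8, 18.4 and 18.9 CPM in eat-2(ad1116) and 12.2, 14 and 11.9 CPM in the double mutant. All 6 libraries with the eat-2 allele lay above all 6 without it, and the 4 genotypes did not overlap. Wild type and dis-3(L75Q) were close, at 1.77 and 2.06 CPM in their nearest libraries. In the pairs of genotypes compared, 12.4% to 37.2% of all genes had libraries without overlap. The share that separated all 4 genotypes was not counted. The order for lips-6 was wild type, dis-3(L75Q), double mutant, eat-2(ad1116). In eat-2(ad1116) the mean was 19 ± 0.691 CPM (SD, n = 3) against 1.13 ± 0.77 in wild type, a log2 change of 4.08 ± 0.46 or 16.9-fold (adjusted p = 0.000832). Only 9 to 56 counts per library lay behind the wild-type level and 587 to 723 behind that of eat-2(ad1116).

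Across the alternatives the log2 change of lips-6 in eat-2(ad1116) ran from 3.65 to 4.57. With the stage score as a term it was 3.81 ± 0.43 (adjusted p = 0.00103). Among those alternatives the call was lost in a fit of the 6 libraries of the 2 genotypes alone (adjusted p = 0.0513). That fit called 0.529% of all genes. In whole animals, fewer cells of a type and less RNA per cell cannot be told apart. Intestinal markers, 11 genes, summed to 4190 to 4443 CPM in wild type and 3337 to 5581 in eat-2(ad1116), and 1 of the 11, the cathepsin gene cpr-1, rose (2.48-fold, adjusted p = 0.0301). Yolk protein genes, which the adult intestine expresses, summed to 2279 to 5848 CPM in wild type and 114 to 1322 in eat-2(ad1116), and 3 of the 6 fell there: vit-1 (log2 -3.87 ± 0.72, adjusted p = 0.0134), vit-3 (-4.72 ± 1.1, 0.0338) and vit-4 (-4.27 ± 1.09, 0.0461). The sequences of vit-3 and vit-4 are alike, and counting may split their reads. Of all genes tested, 4.08% were called higher and 2.12% lower in eat-2(ad1116) against wild type. The 6 epidermal markers summed to 1253 to 2178 CPM in wild type and 723 to 1230 in eat-2(ad1116) while the median of their log2 changes was 0.7. The part of these tissues in the lips-6 result was not tested.

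The fil-1 level was 0.761, 1.55 and 0.974 CPM in wild type replicates 1 to 3 and 2.68, 2.16 and 1.79 CPM in dis-3(L75Q). It was 2.6, 3.38 and 3.39 CPM in eat-2(ad1116) and 1.52, 1.94 and 1.53 CPM in the double mutant. Both single mutants lay above wild type without overlap, while the double mutant overlapped both wild type and dis-3(L75Q). In eat-2(ad1116) the mean rose from 1.1 ± 0.409 to 3.12 ± 0.456 CPM (SD, n = 3), a log2 change of 1.51 ± 0.28 or 2.84-fold (adjusted p = 0.0133). The call was lost without wild type replicate 1 (adjusted p = 0.0519), wild type replicate 3 (0.051), eat-2(ad1116) replicate 2 (0.0564) or eat-2(ad1116) replicate 3 (0.0574), and in the fit of these 6 libraries alone (0.122), with log2 changes of 1.33 to 1.51. Those fits with 1 library left out called 1.81% to 2.41% of all genes, and the fit of the 6 libraries called 0.529%. With the stage score as a term the log2 change of fil-1 was 1.07 ± 0.25 (adjusted p = 0.0389).

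The fil-2 level was 0.634, 0.538 and 0.183 CPM in wild type and 0.364, 0.0654 and 0.228 CPM in dis-3(L75Q). It was 0.957, 1.6 and 1.46 CPM in eat-2(ad1116) and 0.488, 0.677 and 0.778 CPM in the double mutant. The eat-2(ad1116) libraries lay above all others, dis-3(L75Q) lay below the double mutant, and wild type overlapped both. Between dis-3(L75Q) and the double mutant, 22.2% of all genes had libraries without overlap. The fil-2 values rest on 2 to 51 counts per library. The log2 change in eat-2(ad1116) was 1.56 ± 0.51 (adjusted p = 0.0898). It was called without eat-2(ad1116) replicate 1 (1.78 ± 0.53, adjusted p = 0.025), where 37.5% of all genes were called, and by DESeq2 (adjusted p = 0.0224), which called 14.1% of all genes and 3 of the 6 members.

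**Figure D2:**
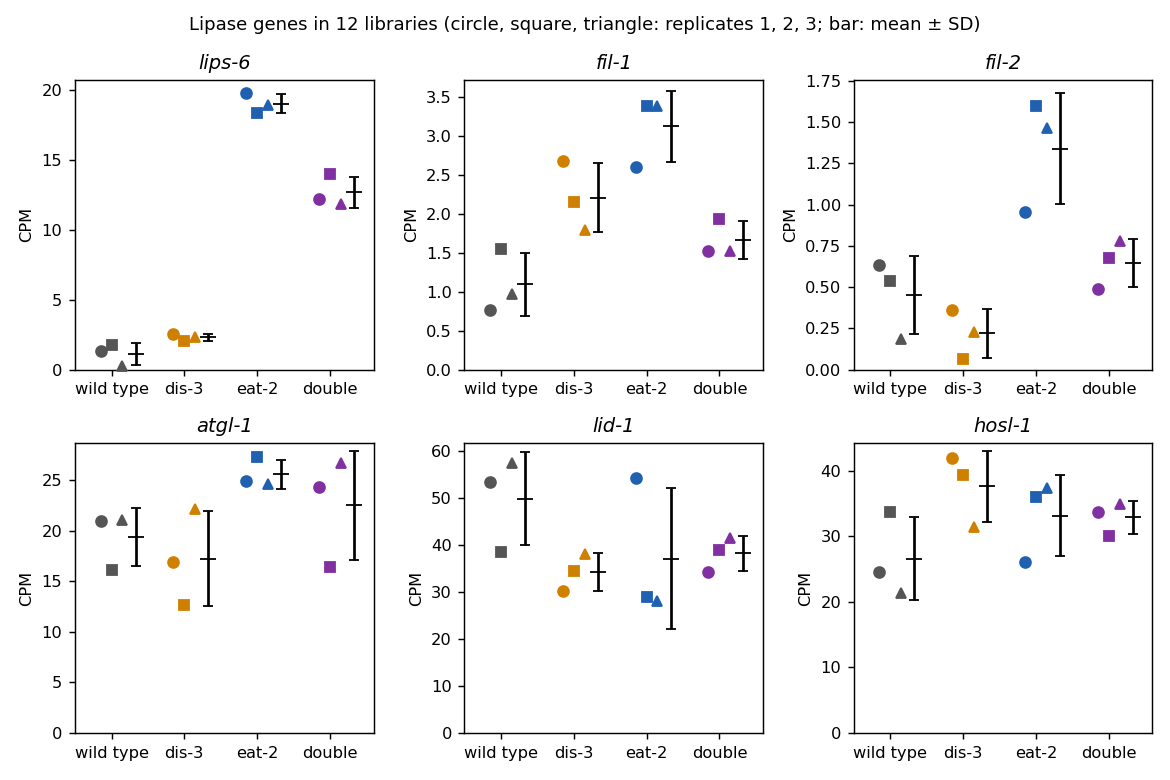
CPM of the 6 genes in each library by genotype, with circles, squares and triangles for replicates 1, 2 and 3 and bars for the mean ± SD (n = 3). The eat-2(ad1116) libraries lie above wild type without overlap for lips-6, fil-1, fil-2 and atgl-1, while the genotypes overlap for hosl-1.

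The triglyceride lipase gene atgl-1 had 21, 16.1 and 21.1 CPM in wild type and 16.9, 12.7 and 22.2 CPM in dis-3(L75Q). It had 24.9, 27.3 and 24.6 CPM in eat-2(ad1116) and 24.4, 16.4 and 26.7 CPM in the double mutant. The eat-2(ad1116) libraries lay above those of wild type and dis-3(L75Q), and the double mutant overlapped all other genotypes. The log2 change in eat-2(ad1116) was 0.4 ± 0.23 (adjusted p = 0.267). No alternative called atgl-1 in any comparison, and its log2 change in eat-2(ad1116) was 0.28 to 0.66 under them.

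The gene of its activator, lid-1, had 53.5, 38.6 and 57.5 CPM in wild type and 30.2, 34.6 and 38.1 CPM in dis-3(L75Q). It had 54.4, 28.9 and 28.1 CPM in eat-2(ad1116) and 34.3, 39 and 41.5 CPM in the double mutant. The dis-3(L75Q) libraries lay just below wild type, and eat-2(ad1116) spanned nearly the whole range because its replicate 1 was near the wild-type level. The log2 change in eat-2(ad1116) was -0.43 ± 0.24 (adjusted p = 0.275). It was -0.78 ± 0.17 without that library (adjusted p = 0.00817), which called 37.5% of all genes, and 0.07 ± 0.14 with the stage score as a term (adjusted p = 0.862).

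The hormone-sensitive lipase gene hosl-1 had 24.6, 33.7 and 21.4 CPM in wild type and 42, 39.3 and 31.5 CPM in dis-3(L75Q). It had 26.1, 36 and 37.4 CPM in eat-2(ad1116) and 33.7, 30.1 and 34.9 CPM in the double mutant. All neighbouring genotypes overlapped. From wild type to eat-2(ad1116) its log2 change was 0.32 ± 0.19 (adjusted p = 0.291), and -0.11 ± 0.09 with the stage score as a term (adjusted p = 0.608).

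The levels of hosl-1 and lid-1 followed the stage score, in opposite directions. Across the 12 libraries, Pearson's r of log2 CPM with the score was 0.948 for hosl-1 (Spearman's rho 0.902) and -0.927 for lid-1 (rho -0.902). The permutation p was 4e-05 for each r, and 0.00012 when adjusted over the 6 genes. The permutations behind the p-values of r and rho, for all 6 genes, shuffled the score over the 12 libraries without regard to genotype. They do not allow for the differences between genotypes. For rho the permutation p was 0.00026 for hosl-1 and 0.0001 for lid-1 (adjusted 0.00078 and 6e-04). Without wild type replicates 1 and 3, the 2 libraries farthest from the median score, r was 0.861 and -0.878. Within genotypes, as deviations from each genotype's mean, r was 0.968 and -0.899, which was not tested. Of the genes tested, 3.72% had an r at least as large in size as hosl-1 and 6.97% as lid-1. Weaker relations with the score were common, since the median size over all genes was 0.631.

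The other 4 genes followed the score less closely. For fil-1, r was 0.778 (permutation p = 0.0052, adjusted 0.01) and rho 0.727 (p = 0.01, adjusted 0.02). Its r was 0.449 without wild type replicates 1 and 3, and 0.799 within genotypes. For lips-6 r was 0.592 (permutation p = 0.054, adjusted 0.082) and rho 0.469 (p = 0.13), with r at 0.031 without the same 2 libraries. For fil-2 r was 0.242 (rho 0.203, permutation p = 0.44 and 0.53), and for atgl-1 it was -0.122 (rho 0.028, p = 0.72 and 0.94). An r at least as large in size was found for 31.2% of the genes tested in the case of fil-1. This share was 54.3% for lips-6, 84.2% for fil-2 and 92% for atgl-1.

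**Figure D3:**
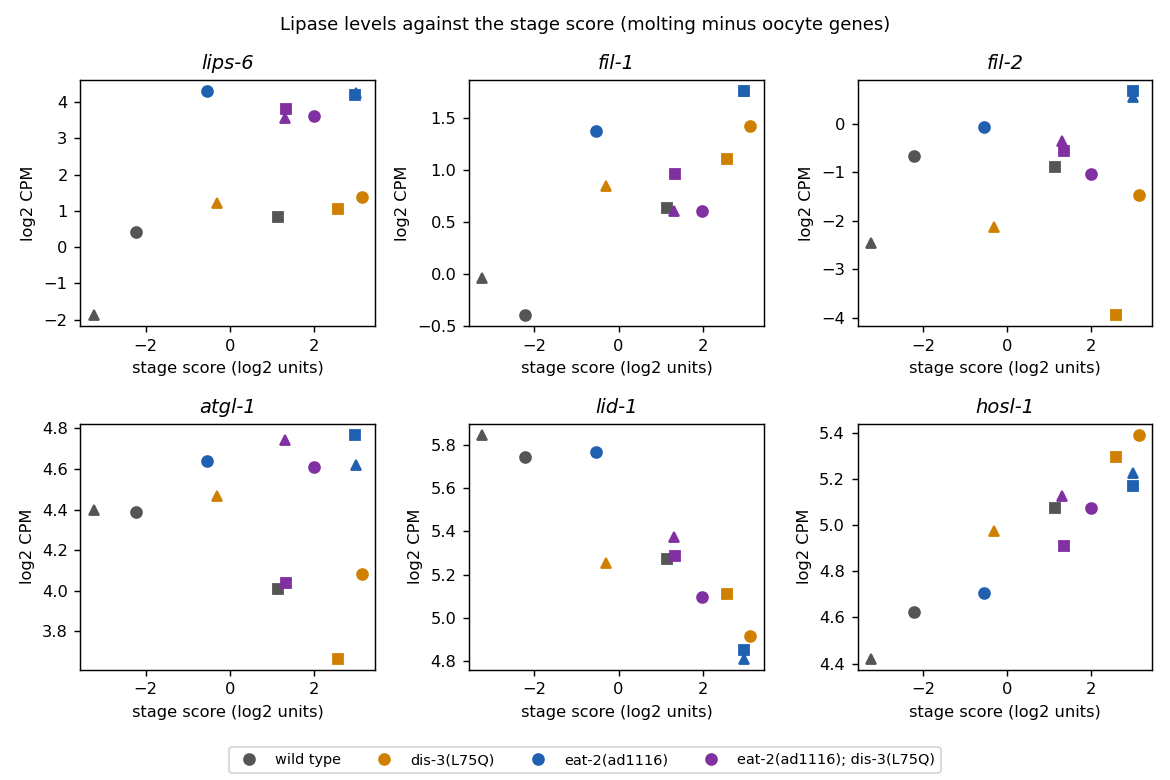
Log2 CPM of the 6 genes against the stage score in the 12 libraries, with colours for genotypes and circles, squares and triangles for replicates 1, 2 and 3. For hosl-1 (r = 0.948) and lid-1 (r = -0.927) the libraries lie near a line whatever their genotype, while for lips-6 those with the eat-2 allele lie above the rest at any score.

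The libraries that stood apart on the score show the same in single values. In eat-2(ad1116) replicate 1, lid-1 was 54.4 CPM against a mean of 28.5 in the other 2 libraries, and hosl-1 26.1 against 36.7. In wild type replicate 2, lid-1 was 38.6 CPM against 55.5 and hosl-1 33.7 against 23. The lips-6 level was 19.8 against 18.7 CPM in the first of these libraries, 2.32 against 2.32 in dis-3(L75Q) replicate 3, and 1.77 against 0.803 in wild type replicate 2. For fil-1 the values in the same order were 2.6 against 3.39, 1.79 against 2.42 and 1.55 against 0.867 CPM.

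In dis-3(L75Q) against wild type none of the 6 genes passed the test in edgeR (0 called, where 0.56% of all genes were). The genes lips-6, fil-1, lid-1 and hosl-1 had an unadjusted p under 0.05, DESeq2 called 1 gene, fil-1 (adjusted p = 0.0388, with 2.08% of all genes called), and limma-voom 0. The libraries did not overlap for lips-6, fil-1 and lid-1, as for 18.9% of all genes. The log2 change was 1.04 ± 0.44 for lips-6 (adjusted p = 0.296), 1.01 ± 0.28 for fil-1 (0.218) and 0.5 ± 0.19 for hosl-1 (0.294). It was -1.03 ± 0.59 for fil-2 (0.319), -0.54 ± 0.25 for lid-1 (0.297) and -0.17 ± 0.23 for atgl-1 (0.639). The stage score differed by 3.23 in this comparison. With the score as a term, hosl-1 stood at 0.08 ± 0.09, lid-1 at 0.02 ± 0.15 and atgl-1 at 0.07 ± 0.25, the last 2 with the opposite sign, and lips-6 at 0.77 ± 0.46 and fil-1 at 0.57 ± 0.26. Without wild type replicate 2, fil-1 (1.35 ± 0.27, adjusted p = 0.0184) and hosl-1 (0.71 ± 0.18, adjusted p = 0.0445) were called, where 7.9% of all genes were.

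In the double mutant set against eat-2(ad1116), the test of dis-3(L75Q) in slowly eating animals, none of the 6 passed either (0 called by edgeR, DESeq2 and limma-voom, where 0.351% of all genes were called by edgeR). The stage score differed by -0.26. All double mutant libraries lay below all eat-2(ad1116) libraries for lips-6, fil-1 and fil-2, and over all genes tested 12.4% had libraries without overlap. The log2 change was -0.59 ± 0.39 for lips-6 (adjusted p = 1), -0.91 ± 0.27 for fil-1 (0.449) and -1.04 ± 0.49 for fil-2 (0.906). Of these, fil-1 had an unadjusted p under 0.05 (0.00706). For atgl-1, lid-1 and hosl-1 it was -0.19 ± 0.22, 0.04 ± 0.24 and -0.01 ± 0.19.

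In the double mutant against dis-3(L75Q), which measures the eat-2 allele in the other background, lips-6 rose, from 2.32 ± 0.259 to 12.7 ± 1.13 CPM (SD, n = 3), and the other 5 genes did not pass the test. The log2 change was 2.45 ± 0.42 or 5.46-fold (adjusted p = 0.0172). Of all genes 1.24% were called and 0.547% called higher. The call was lost when any of the 6 libraries compared was left out: adjusted p = 0.0707, 0.111 and 0.055 without dis-3(L75Q) replicates 1, 2 and 3, and 0.0619, 0.0858 and 0.0702 without double mutant replicates 1, 2 and 3, with log2 changes of 2.37 to 2.53. These 6 fits called 0.449% to 1.04% of all genes. With the stage score as a term the lips-6 log2 change was 2.47 ± 0.35 (adjusted p = 0.00357). The fil-2 value, 1.55 ± 0.57 (adjusted p = 0.328), was as large as in eat-2(ad1116) against wild type, and fil-1 stood at -0.41 ± 0.28 (0.701).

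In the double mutant against wild type lips-6 rose as well (log2 3.49 ± 0.45, 11.3-fold, adjusted p = 0.0017), with 4.28% of all genes called and 2.54% called higher. It was called under every alternative tried, with an adjusted p of at most 0.0187. The other 5 genes did not pass, at 0.6 ± 0.28 for fil-1 (adjusted p = 0.231), 0.52 ± 0.52 for fil-2 (0.556), 0.22 ± 0.23 for atgl-1 (0.574), -0.38 ± 0.24 for lid-1 (0.357) and 0.31 ± 0.19 for hosl-1 (0.346). Without wild type replicate 2, fil-1 was called at 0.94 ± 0.27 (adjusted p = 0.0449), where 14.5% of all genes were. The comparisons with wild type share its 3 libraries.

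The interaction, the effect of dis-3(L75Q) in eat-2 animals minus that in wild type, called none of the 6 genes in edgeR (0 called, where 0.0615% of all genes were), and limma-voom called 0. DESeq2 called fil-1 (-1.97 ± 0.41, adjusted p = 0.00119), where it called 0.321% of all genes. The edgeR values were -1.92 ± 0.39 for fil-1 (unadjusted p = 0.000514, adjusted p = 0.258) and -1.63 ± 0.58 for lips-6 (0.0178 and 0.522). For both genes every dis-3(L75Q) library lay above wild type and every double mutant library below eat-2(ad1116). The share of all genes that did the same was not counted. With the stage score as a term the values were -1.42 ± 0.33 (adjusted p = 0.465) and -1.34 ± 0.56 (adjusted p = 1). Without eat-2(ad1116) replicate 1, fil-1 (-2.07 ± 0.4, adjusted p = 0.0298) and lid-1 (0.94 ± 0.23, adjusted p = 0.033) were called, where 13.5% of all genes were. The other values were 0.58 ± 0.35 for lid-1, -0.51 ± 0.27 for hosl-1, -0.02 ± 0.32 for atgl-1 and -0.01 ± 0.77 for fil-2.

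Without the 3 libraries that stood apart on the stage score, 9 libraries were left and a large part of all genes was called. Leaving them out moved the mean score of wild type from -1.43 to -2.72. The means of dis-3(L75Q) and eat-2(ad1116) went from 1.8 to 2.85 and from 1.81 to 2.98, while the double mutant stayed at 1.55. Each comparison of 2 genotypes thus spanned a wider gap in stage score than with all 12 libraries. For dis-3(L75Q) set against wild type 4 of the 6 members were then called, lips-6 (1.57 ± 0.47), fil-1 (1.5 ± 0.26) and hosl-1 (0.85 ± 0.11) higher and lid-1 (-0.75 ± 0.11) lower, and 51.6% of all genes passed. With eat-2(ad1116) set against wild type 5 passed (58.6% of all genes), all but atgl-1 (0.3 ± 0.22), with lips-6 at 4.54 ± 0.42 and fil-1 at 1.95 ± 0.25. The double mutant against wild type gave 4 (47% of all genes), lips-6, fil-1, lid-1 and hosl-1. Against eat-2(ad1116) it gave 2 (25.2%), fil-1 at -1.04 ± 0.21 and lid-1 at 0.4 ± 0.1, and against dis-3(L75Q) 2 (25%), lips-6 at 2.4 ± 0.35 and hosl-1 at -0.35 ± 0.09. The interaction gave 4 (53%), fil-1 at -2.54 ± 0.33, lips-6 at -2.15 ± 0.55, hosl-1 at -1.02 ± 0.14 and lid-1 at 1.16 ± 0.15. In these fits the spread of the 3 genotypes with a library left out comes from 2 libraries each. The part of the wider gap in stage score in these calls was not tested.

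**Figure D4:**
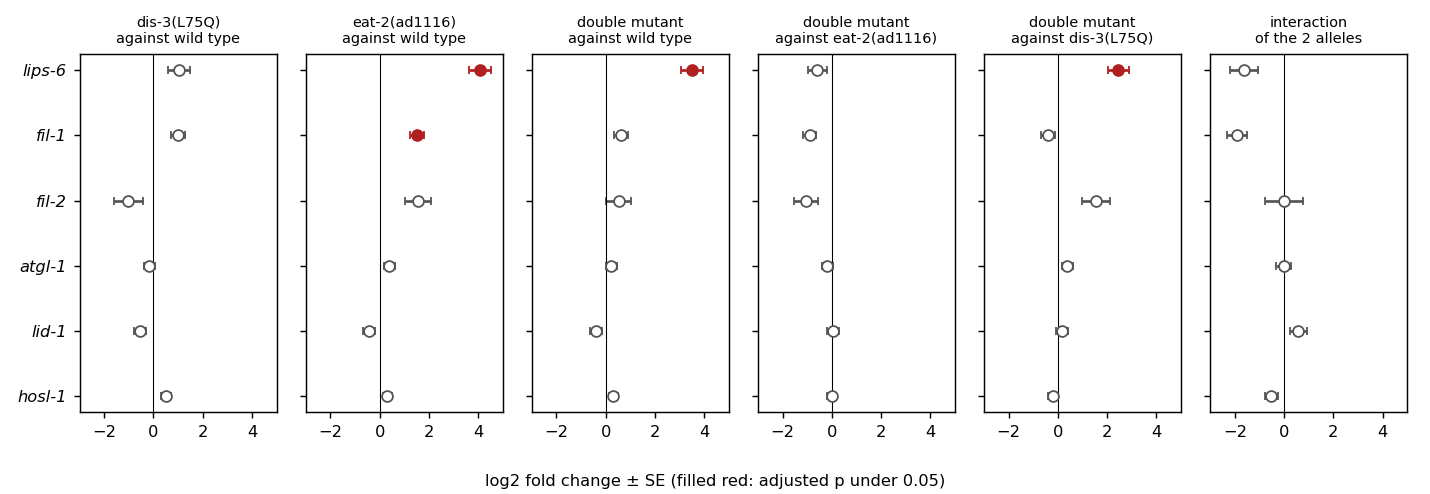
Log2 fold change ± SE of the 6 genes in the 6 comparisons from edgeR, filled red where the adjusted p was under 0.05. The called values are lips-6 against wild type in eat-2(ad1116) (4.08) and the double mutant (3.49) and between dis-3(L75Q) and the double mutant (2.45) and, with eat-2(ad1116) set beside wild type, fil-1 (1.51).

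The other lips genes, 13 in the annotation, had 10 members with enough counts. In eat-2(ad1116) against wild type 1 of the 10 rose and 0 fell, with a median log2 change of -0.36, where 6.21% of all genes were called. The gene that rose was lips-15, from 36.5 ± 5.87 to 59.2 ± 8.63 CPM (1.62-fold, log2 0.7 ± 0.15, adjusted p = 0.0251). In the other comparisons edgeR called none of the 10 lips genes (0 in each), and the median log2 changes were 0.19 in dis-3(L75Q) and 0.36 in the double mutant against wild type. They were 0.27 in the double mutant set against eat-2(ad1116) and 0.04 against dis-3(L75Q).

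A list of 24 genes of lipid droplets and triglyceride synthesis had 22 matches in the annotation, 1 of which, cct-1, encodes a chaperonin subunit. Of the 22, 0 passed the test in eat-2(ad1116) against wild type (median log2 -0.08), where 6.21% of all genes were called. The perilipin gene plin-1, which coats lipid droplets, lay at 55.7 ± 6.25 CPM in wild type and 51.8 ± 5.89 in eat-2(ad1116). In dis-3(L75Q) against wild type 1 of 22 rose (0.56% of all genes were called), lido-8, from 30.2 ± 4.89 to 52.3 ± 3.15 CPM (1.74-fold, adjusted p = 0.0216). It also rose in the double mutant set against eat-2(ad1116) (2.44-fold, adjusted p = 0.00136, 1 of 22, with 0.351% of all genes called) and against wild type (1.83-fold, adjusted p = 0.00446). The second of the 2 that rose in this last comparison was the lipin gene lpin-1, which makes diacylglycerol for triglyceride (1.45-fold, adjusted p = 0.019). There 2.54% of all genes were called higher. In the double mutant against dis-3(L75Q) 0 of 22 were called, where 1.24% of all genes were.

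Of 26 regulators of fasting and lipolysis, 2 rose and 1 fell in eat-2(ad1116) against wild type (median log2 0.26), where 4.08% of all genes rose and 2.12% fell. The nuclear receptor gene nhr-76, which acts in serotonin-driven fat loss, fell from 19 ± 3.34 to 8.52 ± 1.32 CPM (log2 -1.16 ± 0.18, adjusted p = 0.0057). It also fell in the double mutant against wild type (log2 -0.94 ± 0.18, adjusted p = 0.0161), the single regulator called there, where 4.28% of all genes were called. The serotonin-gated channel gene mod-1 rose from 2.57 ± 0.533 to 4.38 ± 0.721 CPM (1.7-fold, adjusted p = 0.0478), and pha-4, a FOXA factor needed for lifespan extension by dietary restriction, from 4.32 ± 0.704 to 8.21 ± 1.93 CPM (1.9-fold, adjusted p = 0.0283). None of the 26 was called in the other comparisons. The genes on which fil-1 and fil-2 depend in fasting were on this list. In wild type and eat-2(ad1116), ire-1 lay at 111 ± 3.33 and 114 ± 4.77 CPM and hsp-4 at 449 ± 25.1 and 427 ± 21.9 CPM, and neither passed the test.

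**Figure D5:**
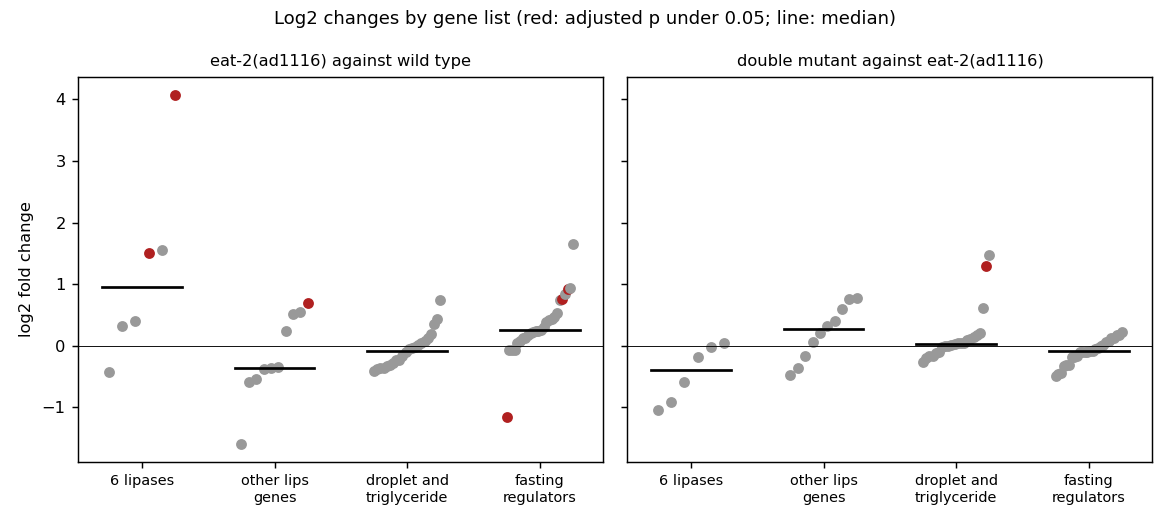
Log2 fold changes of the 6 lipase genes and of 3 gene lists, each point a gene, red where the adjusted p was under 0.05, with a line at each median. In eat-2(ad1116) against wild type (left) lips-6 at 4.08 lies far above all other genes shown, and in the double mutant set against eat-2(ad1116) (right) the single gene called is lido-8.

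The genes most like each member over the 12 libraries, by Pearson's r of log2 CPM among gene-class names whose level averaged 5 CPM or more over the 12 libraries, were as follows. They are a description, with the same libraries and scaling behind both values. For lips-6 these were the saposin-like gene spp-2 (r = 0.98), rrf-2 of the RNA-directed RNA polymerase family (0.966) and the C-type lectin gene clec-61 (0.952), whose genotype means were 0.802 CPM in wild type and 12 in eat-2(ad1116). The spp-2 means were 20.4, 31.1, 98.7 and 86.4 CPM in wild type, dis-3(L75Q), eat-2(ad1116) and the double mutant. For fil-1 they were nsy-7 (0.905), rgs-7 (0.903) and sng-1 (0.898), and for fil-2 aagr-1 (0.92), ifd-1 (0.915) and mmaa-1 (0.891). For atgl-1 they were pdhk-2 (0.921), lmd-3 (0.911) and fln-1 (0.902). For lid-1 they were smc-6 (0.989), drsh-1 (0.989) and mig-32 (0.989), and for hosl-1 egal-1 (0.97), tmc-2 (0.966) and ina-1 (0.96). Between lid-1 and hosl-1 r was -0.904, between lips-6 and fil-1 0.663, and between fil-1 and fil-2 0.378.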

How the data were processed

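The authors deposited 1 expected count per gene and library, per the file headers, with no scaling. Aligner, counter and builds, per the submitters' processing notes, were STAR 2.7.0e with RSEM 1.3.1 and WBcel235 or ce11. How genes were annotated for counting, trimming, strand and RNA selection is not given in the sources used here. Per the labels, total RNA was sequenced from both ends. Gene names, coordinates and exon lengths come from Ensembl release 115. In each library 93.4% to 93.8% of values above 0 were whole, and all were rounded.

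Genes passing filterByExpr (16259) were tested with edgeR 4.0.16 (quasi-likelihood F test, robust, TMM, genotype alone, 12 libraries, two-sided) in R 4.3.3. CPM per kb divides CPM by the length of all annotated exons joined. The edgeR log2 changes given include a prior count, a small value added to counts. Their SE is the size of the log2 change without it over the square root of F. Genes of the 3 pathway lists were named where called. Others, plin-1, ire-1 and hsp-4 of these lists and the marker genes cpr-1, vit-1, vit-3 and vit-4, were chosen after their values were seen. Alternatives were 2 other scalings, no filter or one of 50 counts in 3 libraries, DESeq2 1.42.0, limma-voom 3.58.1, the libraries compared alone, a replicate block, the stage score, an adjusted p under 0.01, each library left out, and the 3 libraries apart left out. The code was tested on simulated counts. Whether replicates were separate cultures beyond independent harvests is not stated, so p-values measure the spread between these libraries. The genes and lists were chosen with earlier results of these data known. Plots used matplotlib 3.10.9.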

Additional observations from a re-analysis of the deposited data

Results flagged for a closer look

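With dis-3(L75Q), 2 genes lay on opposite sides in the 2 backgrounds in every library. The lips-6 level was higher in all 3 dis-3(L75Q) libraries than in wild type and lower in all 3 double mutant libraries than in eat-2(ad1116), and the interaction of the alleles was -1.63 ± 0.58 on the log2 scale (edgeR adjusted p = 0.522). The fil-1 level did the same, with an interaction of -1.92 ± 0.39 (edgeR adjusted p = 0.258). The difference was thus tested, and it did not pass in edgeR for either gene. Over all genes tested, 18.9% had libraries without overlap between dis-3(L75Q) and wild type, and 12.4% between the double mutant and eat-2(ad1116). The share of genes with both, on opposite sides, was not counted.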

How the results depend on the processing

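The 6 genes in 6 comparisons gave 36 results and 816 values under the alternatives. Of these 739 kept direction and side of the threshold, 14 kept direction and lost the call, 27 kept direction and gained one, and 36 changed sign. Counts of the 6 genes called moved as follows. DESeq2 called 1 with dis-3(L75Q) set against wild type and 1 in the interaction. An adjusted p under 0.01 left 1 in eat-2(ad1116) against wild type, where 1.46% of all genes passed. Between dis-3(L75Q) and the double mutant it left 0, where 0.504% of all genes passed. The 6 libraries of eat-2(ad1116) and wild type alone gave 0, where 0.529% of all genes were called. Leaving out the 3 libraries apart widened the gaps in stage score between genotypes. Without the 3 libraries apart the counts were 4, 5, 4, 2, 2 and 4, in the order dis-3(L75Q), eat-2(ad1116) and double mutant against wild type, double mutant set against eat-2(ad1116) and against dis-3(L75Q), and interaction. With 1 library left out they ran from 0 to 2, 1 to 4, 1 to 2, 0 to 0, 0 to 1 and 0 to 2 in that order. The highest counts of the comparisons with wild type came where 7.9%, 37.5% and 14.5% of all genes were called, and that of the interaction where 13.5% were. Same-numbered libraries showed no common deviation from their genotype means (18 pairs, r from -0.626 to 0.424, 7 above 0.1). The median r was -0.066 in these pairs and -0.016 in the 36 other pairs. The libraries apart on the stage score carry different numbers, so these values cannot decide whether a number marks a shared harvest. With a replicate block the counts were 0, 2, 1, 0, 1 and 0, as without it, while the share of all genes called went from 6.21% to 3.05% in eat-2(ad1116) against wild type.

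Signs turned in log2 values that the edgeR fit of all 12 libraries did not call. With the stage score as a term, dis-3(L75Q) against wild type gave 0.0701 for atgl-1 and 0.0153 for lid-1, eat-2(ad1116) against wild type 0.0728 for lid-1 and -0.11 for hosl-1, and the double mutant against wild type 0.13 for lid-1 and -0.0698 for hosl-1. For lid-1 in the double mutant set against eat-2(ad1116), size factors of the DESeq2 type gave -0.0060, library totals -0.0126, the stricter filter -0.0067 and DESeq2 -0.0060. For hosl-1 there, limma-voom gave 0.0092 and the stage term 0.0396. In the interaction, fil-2 stood at 0.0218 with library totals, 0.0595 with limma-voom and 0.52 with the stage term, and atgl-1 at 0.0077 with library totals and 0.26 without the 3 libraries apart. With 1 library left out, atgl-1 with dis-3(L75Q) set against wild type ran from -0.39 to 0.0121, and in the double mutant set against eat-2(ad1116) lid-1 ran from -0.12 to 0.40 and hosl-1 from -0.19 to 0.0832. In the interaction fil-2 ran from -0.44 to 0.55 and atgl-1 from -0.20 to 0.20. The difference in stage score ran from -1.44 to 0.333 between eat-2(ad1116) and the double mutant, and from -1.31 to 0.414 between dis-3(L75Q) and the double mutant. The causes were not tested. The stricter filter dropped fil-2, and the interaction needs all 4 genotypes. Counts per library were low for fil-2 (2 to 51) and for lips-6 in wild type (9 to 56). The part of depth in their spread was not tested.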
